A study of Mus musculus with 9 samples.

Results

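The genes of 10 immune checkpoint ligands were followed in RNA of mouse pancreatic tumor cells with and without Usp22: Cd274, Pdcd1lg2, Cd80, Cd86, Cd47, Nectin2, Pvr, Lgals9, Vtcn1 and Cd276. They were chosen by name as known ligands, with earlier results of these data known. All 10 were found by gene symbol in a table of 24493 genes. The tumor cells are of 1 clone, 6419c5, from C57BL/6 mice, and grew as tumors implanted under the skin. The 9 samples of polyadenylated RNA fall into 3 groups of 3. The groups are Usp22-KOA and Usp22-KOB, which are 2 knockouts of the ubiquitin protease gene Usp22 in that clone, and WT, the clone with Usp22 intact. The labels call the cells late stage, leave the letters A and B unexplained, and are silent on how tumor cells were separated from the rest of a tumor. Nor do they tie samples to separate mice, so p-values here reflect no more than the spread among the samples, and that may be technical. Values are in TPM, estimated reads divided by transcript length and scaled to 1000000 per library. Read depth cannot be recovered from TPM and is unknown, and precision rests on the spread within a group.

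Checkpoint ligands are surface or secreted proteins that tell immune cells to stop or to go on. PD-L1 (Cd274) and PD-L2 (Pdcd1lg2) bind PD-1 on T cells and restrain them, and interferon gamma from T cells is a classic inducer of both. CD80 and CD86 are the B7 ligands of CD28 and CTLA-4 and are made mainly by antigen-presenting cells, while CD47 is the signal by which a cell restrains phagocytes through SIRP alpha. Nectin-2 and PVR are adhesion molecules read by TIGIT, CD96 and DNAM-1 (Cd226) on T and NK cells, galectin-9 (Lgals9) is a ligand of TIM-3 (Havcr2), and B7-H4 (Vtcn1) and B7-H3 (Cd276) are B7 family members with inhibitory effects on T cells. Usp22 removes ubiquitin from histones as part of the SAGA coactivator complex.

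Relative to WT, both knockouts had more Cd274 and Lgals9 RNA and much less Vtcn1 and Nectin2 RNA. Pdcd1lg2 rose in Usp22-KOB, while its call in Usp22-KOA (limma adjusted p = 0.0453) came with values that overlapped WT and ended when any of 7 of the 9 libraries was left out. Vtcn1 fell to 4.46% of the WT mean in Usp22-KOA and to 8.75% in Usp22-KOB. Cd47 rose in Usp22-KOA, by 1.06 ± 0.07 on the log2 scale (SE, n = 3 per group, limma fit of all genes), and Cd86, a mainly myeloid ligand, rose in Usp22-KOB, by 0.97 ± 0.24. The knockouts differed from each other in both genes by the direct test. Usp22 itself was at 9.77, 8.46 and 10.1 TPM in Usp22-KOA, at 11.8, 14.9 and 14.1 TPM in Usp22-KOB, and at 55.1, 54.5 and 56.4 TPM in WT. Its values in the 6 knockout samples lay below all 3 WT values (exact two-sided permutation test over 84 splits, p = 0.0119, the smallest the design allows). Per library, 13037 to 13940 genes were at 1 TPM or more, and the correlation of log values was between 0.972 and 0.985 within groups and between 0.885 and 0.945 across groups.

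The promoter stretches of 5 ligands are shown, those called in the same direction against WT in both knockouts (limma adjusted p under 0.05). Each is the 250 bases before the RefSeq start site (RefSeq, GRCm38.p6), written 5′ to 3′ on the gene's own strand. RefSeq's start of Nectin2 and of Lgals9 lies within the span that GENCODE M21 gives the gene. Capitals mark the only match found in these 5 stretches, an interferon-stimulated response element core (GAAA, any 2 bases, GAAA) read from the other strand.
Cd274, chr19:29367188-29367437, plus strand: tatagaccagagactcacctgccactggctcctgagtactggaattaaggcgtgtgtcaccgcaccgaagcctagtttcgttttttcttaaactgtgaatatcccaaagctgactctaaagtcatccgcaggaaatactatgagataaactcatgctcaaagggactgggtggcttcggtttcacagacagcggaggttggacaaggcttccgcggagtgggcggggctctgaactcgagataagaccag
Pdcd1lg2, chr19:29410669-29410918, plus strand: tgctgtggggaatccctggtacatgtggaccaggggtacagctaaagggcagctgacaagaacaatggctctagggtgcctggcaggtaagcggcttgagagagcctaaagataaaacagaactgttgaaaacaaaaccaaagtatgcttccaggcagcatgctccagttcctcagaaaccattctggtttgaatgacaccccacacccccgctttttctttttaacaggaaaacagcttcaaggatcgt
Lgals9, chr11:78984925-78985174, minus strand: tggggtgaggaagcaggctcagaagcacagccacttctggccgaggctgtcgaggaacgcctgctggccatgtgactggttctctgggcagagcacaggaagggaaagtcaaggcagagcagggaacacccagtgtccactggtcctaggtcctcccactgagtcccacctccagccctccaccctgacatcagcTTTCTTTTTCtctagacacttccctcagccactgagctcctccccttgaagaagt
Vtcn1, chr3:100825209-100825458, plus strand: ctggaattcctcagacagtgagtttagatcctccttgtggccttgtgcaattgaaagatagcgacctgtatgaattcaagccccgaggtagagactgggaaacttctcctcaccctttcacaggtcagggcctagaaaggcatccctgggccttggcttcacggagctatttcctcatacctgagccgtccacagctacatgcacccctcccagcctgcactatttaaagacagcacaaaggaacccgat
Nectin2, chr7:19749574-19749823, minus strand: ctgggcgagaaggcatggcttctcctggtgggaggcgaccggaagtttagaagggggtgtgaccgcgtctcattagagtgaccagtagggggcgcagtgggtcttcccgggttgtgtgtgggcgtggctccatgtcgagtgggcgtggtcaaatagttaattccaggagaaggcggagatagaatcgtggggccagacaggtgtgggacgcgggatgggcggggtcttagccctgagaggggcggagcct

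Windows of 300 bases, those 250 and the first 50 of the transcript, were found for 8 of the 10 ligands and not for Pvr and Cd86. They were searched on both strands for 5 motifs: the gamma-activated site (TTCNNNGAA), the interferon-stimulated response element core (as above), an NF-kB site (GGGA, any base, TTTCC), the cyclic AMP response element (TGACGTCA) and an AP-1 site (TGANTCA). The motifs were chosen after the values were seen. Lgals9 held the interferon element at positions -55 and 16 from its start, and this motif was in 3.44% of the 32851 mouse windows searched. Cd80 held an AP-1 match at position -42 and Vtcn1 one at position 2, a motif found in 7.81% of windows, and Nectin2 held a cyclic AMP element at position 40, found in 1.79%. The gamma-activated site (8.30% of windows) and the NF-kB site (0.411%) were in no window of the ligands, and no match overlapped another motif. These are matches of letters in a short window and say nothing about binding.

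Cd274 and Pdcd1lg2 lie next to each other on chromosome 19 (GENCODE M21 annotation of GRCm38), Cd274 at 29367455 to 29388095 and Pdcd1lg2 at 29410919 to 29471161, both on the plus strand and 22.8 kb apart. Cd274 encodes the ligand of PD-1 that tumor cells most often carry. Its RNA was at 17.9, 17.6 and 13.2 TPM in Usp22-KOA, at 26.6, 26.1 and 19.7 TPM in Usp22-KOB, and at 9.98, 9.91 and 9.32 TPM in WT. The 3 groups did not overlap, with Usp22-KOB highest and WT lowest. On the log2(TPM + 1) scale, which understates the change of low genes, the difference from WT was 0.67 ± 0.14 (SE) in Usp22-KOA (limma, Benjamini-Hochberg adjusted p = 0.0028) and 1.22 ± 0.14 in Usp22-KOB (adjusted p = 2.7e-04). Usp22-KOA was below Usp22-KOB by its own test, with a difference of -0.54 ± 0.14 (adjusted p = 0.0100).

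Pdcd1lg2, whose product PD-L2 is known chiefly from macrophages and dendritic cells, was the lowest ligand of WT. It was at 3.95, 3.11 and 1.17 TPM in Usp22-KOA, at 6.23, 6.83 and 3.93 TPM in Usp22-KOB, and at 1.16, 1.26 and 0.518 TPM in WT. All Usp22-KOB values lay above WT, and 1 Usp22-KOA value fell inside the WT range. The log2 difference from WT was 1.75 ± 0.32 in Usp22-KOB (limma adjusted p = 0.0030). In Usp22-KOA it was 0.86 ± 0.32 (adjusted p = 0.0453), a call that ended when any library other than Usp22-KOA sample 3 or Usp22-KOB sample 3 was left out (adjusted p between 0.0569 and 0.153). Usp22-KOA differed from Usp22-KOB by -0.89 ± 0.32 (adjusted p = 0.0436). That call ended without WT sample 1 or 2, Usp22-KOA sample 2 or 3, or Usp22-KOB sample 1 or 2 (adjusted p between 0.0549 and 0.134), and the difference was -0.53 without Usp22-KOA sample 3. The Pdcd1lg2 gene overlaps A930007I19Rik on the opposite strand, and the labels do not state whether counting used strand, so reads of the pair may not be told apart.

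Jak2, the interferon receptor kinase gene that lies 54.4 kb before Cd274, did not rise with the PD-1 ligand genes. It fell in Usp22-KOA, with a log2 difference of -0.36 ± 0.07 (limma adjusted p = 0.0013), and its difference in Usp22-KOB was 0.11 ± 0.07 (adjusted p = 0.229).

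The B7 ligands Cd80 and Cd86 stand on chromosome 16, at 38455561 to 38496335 (plus strand) and 36603869 to 36666081 (minus strand). Cd80 was at 7.22, 6.08 and 3.54 TPM in Usp22-KOA, at 9.83, 7.58 and 4.27 TPM in Usp22-KOB, and at 3.75, 2.83 and 2.06 TPM in WT. The Usp22-KOB values were all above WT, while the lowest Usp22-KOA value lay inside the WT range. Cd80 rose in Usp22-KOB by 1.04 ± 0.31 (limma adjusted p = 0.0261). The call ended without WT sample 2 (adjusted p = 0.0621), WT sample 3 (0.0880), Usp22-KOB sample 1 (0.0904) or Usp22-KOB sample 2 (0.0812). In Usp22-KOA the difference was 0.75 ± 0.31 (adjusted p = 0.0638; 95% interval 0.05 to 1.44), and it passed without sample 3 of Usp22-KOA (adjusted p = 0.0232) or of Usp22-KOB (0.0335). The difference between the knockouts was -0.30 (adjusted p = 0.449; 95% interval -0.99 to 0.40).

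Cd86 was at 5.56, 4.77 and 3.34 TPM in Usp22-KOA, at 10.9, 12.3 and 6.53 TPM in Usp22-KOB, and at 4.39, 5.46 and 3.57 TPM in WT. Each Usp22-KOB value was above every other sample, and the Usp22-KOA range reached beyond the WT range on both sides. Cd86 was higher in Usp22-KOB than in WT by 0.97 ± 0.24 (limma adjusted p = 0.0128), and the call ended without Usp22-KOB sample 2 (adjusted p = 0.0517). Its difference in Usp22-KOA was 0.02 ± 0.24 (adjusted p = 0.962; 95% interval -0.53 to 0.56). The test between knockouts gave -0.95 ± 0.24 (adjusted p = 0.0093).

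Lgals9, on chromosome 11 at 78962974 to 78984946 (minus strand), encodes galectin-9, a secreted lectin, and was the highest of the ligands in each group. It was at 399.8, 385 and 415.5 TPM in Usp22-KOA, at 256, 283 and 305 TPM in Usp22-KOB, and at 235, 232 and 213 TPM in WT. The groups did not overlap and the order was Usp22-KOA, Usp22-KOB, WT from high to low. The log2 differences from WT were 0.82 ± 0.07 in Usp22-KOA (limma adjusted p = 1.4e-05) and 0.31 ± 0.07 in Usp22-KOB (adjusted p = 0.0091). Usp22-KOA exceeded Usp22-KOB by 0.51 ± 0.07 (adjusted p = 3.7e-04).

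Cd47, on chromosome 16 at 49800533 to 49915010 (plus strand), was the second most abundant ligand. It was at 319, 357 and 379 TPM in Usp22-KOA, at 184, 187 and 205 TPM in Usp22-KOB, and at 174, 163 and 167 TPM in WT. The 3 Usp22-KOA values stood far above the rest, and the Usp22-KOB values lay just above WT without overlap. Cd47 was 1.06 ± 0.07 higher in Usp22-KOA than in WT (limma adjusted p = 2.9e-06). In Usp22-KOB the difference was 0.19 ± 0.07 (adjusted p = 0.0597; 95% interval 0.03 to 0.35), which passed without Usp22-KOA sample 1 (adjusted p = 0.0347) or Usp22-KOA sample 3 (0.0427). Usp22-KOA exceeded Usp22-KOB by 0.87 ± 0.07 (adjusted p = 1.6e-05).

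Nectin2 and Pvr, paralogs of the nectin family, are 153 kb apart on the minus strand of chromosome 7, at 19716644 to 19750483 and at 19903578 to 19921160. Nectin2 was at 37.6, 34.7 and 39.7 TPM in Usp22-KOA, at 64.3, 66.1 and 79.7 TPM in Usp22-KOB, and at 124, 130 and 134 TPM in WT. The groups were apart, and the mean of Usp22-KOA was 28.9% and that of Usp22-KOB 54.2% of the WT mean. Nectin2 fell by 1.77 ± 0.09 on the log2 scale in Usp22-KOA (limma adjusted p = 5.6e-07) and by 0.88 ± 0.09 in Usp22-KOB (adjusted p = 1.2e-04). Usp22-KOA was below Usp22-KOB, with a difference of -0.89 ± 0.09 (adjusted p = 5.1e-05).

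Pvr was at 22.1, 24.3 and 23.4 TPM in Usp22-KOA, at 28.5, 32.9 and 34.0 TPM in Usp22-KOB, and at 30.5, 30.7 and 29.6 TPM in WT. The Usp22-KOA values were the lowest of the 9, and the Usp22-KOB values lay on both sides of WT. Pvr fell by 0.36 ± 0.08 in Usp22-KOA (limma adjusted p = 0.0028) and its difference in Usp22-KOB was 0.07 ± 0.08 (adjusted p = 0.510; 95% interval -0.10 to 0.24). Usp22-KOA differed from Usp22-KOB by -0.43 ± 0.08 (adjusted p = 0.0013).

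Vtcn1, on chromosome 3 at 100825459 to 100896922 (plus strand), showed the steepest loss of the 10. It was at 0.644, 0.518 and 0.937 TPM in Usp22-KOA, at 0.909, 1.65 and 1.56 TPM in Usp22-KOB, and at 16.02, 15.5 and 15.6 TPM in WT. No knockout sample came near the WT range, and the means were 4.46% of WT in Usp22-KOA and 8.75% of WT in Usp22-KOB. The log2 difference from WT was -3.30 ± 0.16 in Usp22-KOA (limma adjusted p = 4.4e-07) and -2.83 ± 0.16 in Usp22-KOB (adjusted p = 4.1e-06). The knockouts differed by -0.47 ± 0.16 (adjusted p = 0.0303), with overlapping values. That call ended without Usp22-KOA sample 1 (adjusted p = 0.0723) or 2 (0.0950), or without Usp22-KOB sample 2 (0.105) or 3 (0.0750).

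Cd276, on chromosome 9 at 58524298 to 58555437 (minus strand), differed little between groups. It was at 32.8, 36.0 and 28.5 TPM in Usp22-KOA, at 31.0, 30.9 and 40.4 TPM in Usp22-KOB, and at 27.1, 26.8 and 27.7 TPM in WT. All 6 knockout values lay above the WT values. The differences of 0.24 ± 0.12 in Usp22-KOA (limma adjusted p = 0.107) and 0.30 ± 0.12 in Usp22-KOB (adjusted p = 0.0675) missed the threshold, although that of Usp22-KOA passed without sample 3 of Usp22-KOA (adjusted p = 0.0459) or of Usp22-KOB (0.0343). The average of both knockouts was 0.27 ± 0.10 above WT (adjusted p = 0.0484). This last call ended without any 1 of the WT samples (adjusted p between 0.101 and 0.121) or without Usp22-KOA sample 1 (0.0832) or 2 (0.0896). Between knockouts the difference was -0.06 (95% interval -0.33 to 0.20).

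**Figure D1:**
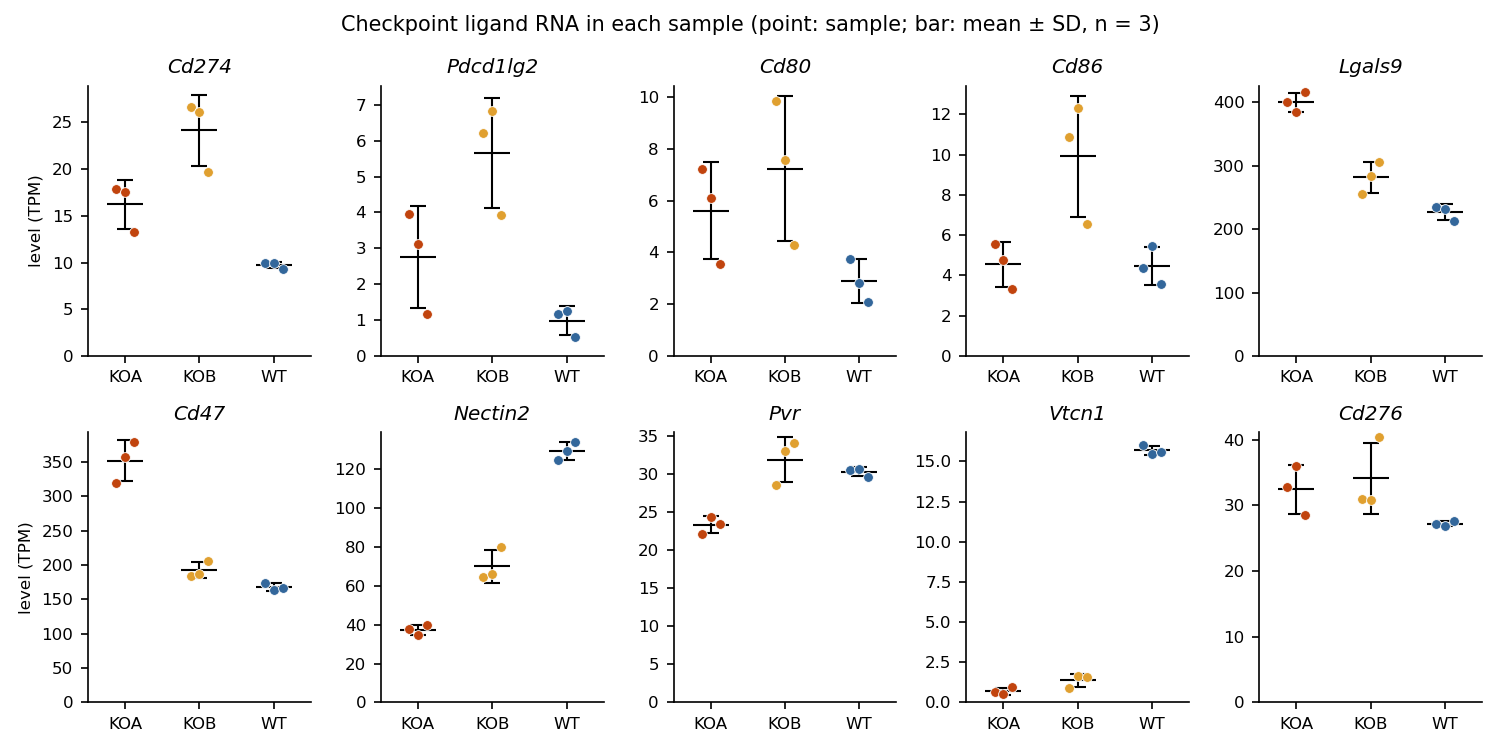
Level of each ligand in TPM (y axis, from 0) in Usp22-KOA, Usp22-KOB and WT; points are samples, bars the mean ± SD of 3. Vtcn1 and Nectin2 are below WT in all 6 knockout samples, Cd47 stands out in Usp22-KOA, and Cd86 in Usp22-KOB.

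A gene was called at an adjusted p under 0.05 in 1 limma fit of all 9 samples, over the 13843 genes that averaged 1 TPM or more, a filter that all 10 ligands passed. In Usp22-KOA against WT, 4 ligands were higher (Cd274, Pdcd1lg2, Cd47, Lgals9) and 3 lower (Vtcn1, Nectin2, Pvr), 7 in all, where 56.3% of all genes tested were called (29.4% higher and 26.9% lower). In Usp22-KOB against WT, 5 were higher (Cd274, Pdcd1lg2, Cd80, Cd86, Lgals9) and 2 lower (Vtcn1, Nectin2), again 7, where 37.1% of genes were called (18.7% higher and 18.4% lower). The average of both knockouts against WT gave 6 higher and 2 lower, where 50.0% of genes were called (25.9% higher and 24.1% lower). The count of called ligands is thus to be read against a background in which a large part of all genes was called.

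The size of the differences also stood beside that of other genes. The median absolute log2 difference was 0.78 for the ligands against 0.37 for all genes in Usp22-KOA against WT, and 0.92 against 0.23 in Usp22-KOB against WT. The signed median in Usp22-KOA was 0.46 for the ligands and 0.02 for all genes, and in Usp22-KOB it was 0.31 for the ligands and -0.01 for all genes. A difference of at least 1 was seen in 3 ligands in Usp22-KOA, where 15.4% of all genes had one, and in 4 in Usp22-KOB, where 9.83% had one. Both comparisons share the WT samples. The ligands were chosen with earlier results of these data known, which limits what these medians and counts can show.

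Counted by groups that did not overlap, Usp22-KOA lay wholly above WT in 4 ligands and wholly below in 3, where 65.3% of all genes were apart (34.2% higher and 31.1% lower). Usp22-KOB lay wholly above WT in 7 ligands and below in 2, where 49.1% of genes were apart (25.0% higher and 24.0% lower). All 6 knockout samples lay above WT in 4 ligands (Cd274, Cd47, Cd276, Lgals9) and below in 2 (Vtcn1, Nectin2), where 29.7% of genes were apart (15.0% higher and 14.7% lower). Usp22-KOA lay above Usp22-KOB in 2 ligands and below in 4, where 58.3% of genes were apart (31.3% higher and 27.1% lower).

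Usp22-KOA against Usp22-KOB, the comparison that does not use WT, called 8 ligands, where 51.7% of all genes were called (27.5% higher and 24.2% lower). Cd47 and Lgals9 were higher in Usp22-KOA. Cd274, Pdcd1lg2, Cd86, Nectin2, Pvr and Vtcn1 were lower in Usp22-KOA, and Cd80 and Cd276 were not called. The signed median was -0.45 for the ligands and 0.03 for all genes.

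**Figure D2:**
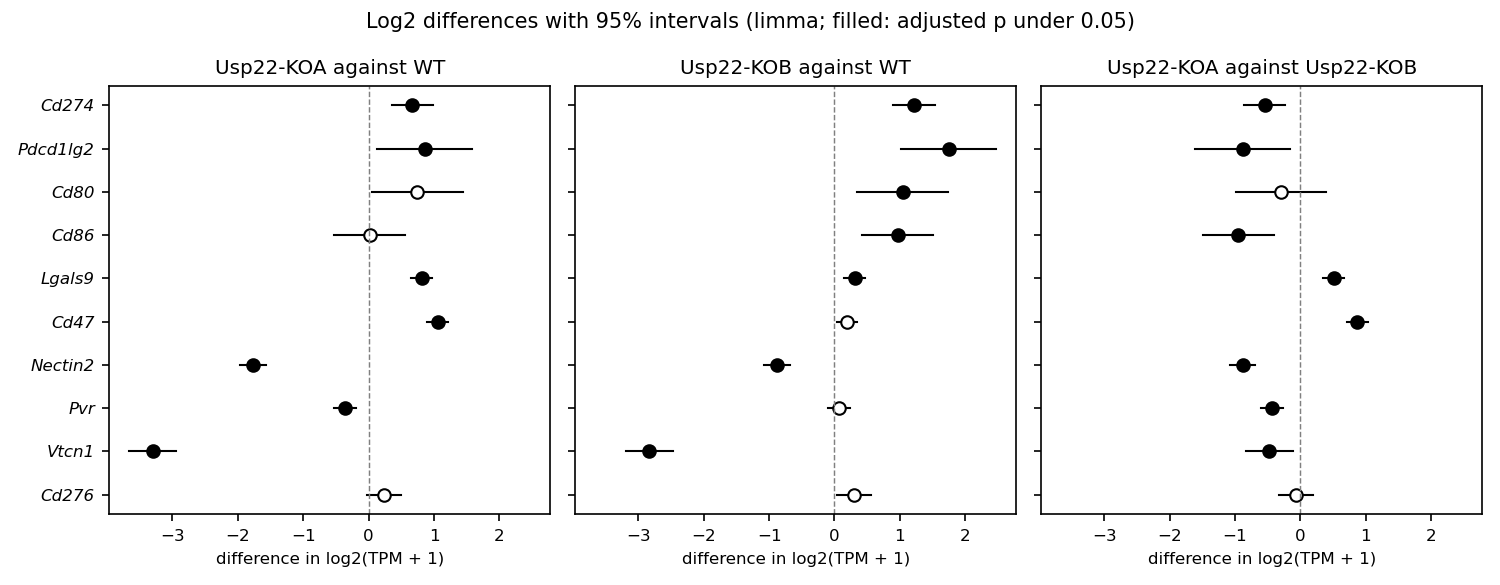
Difference in log2(TPM + 1) on the x axis for each ligand (rows) for each knockout set against WT (left and middle) and for the knockouts set against each other (right, Usp22-KOA minus Usp22-KOB); lines are 95% intervals and filled points have a limma adjusted p under 0.05. Vtcn1 lies farthest to the left in both comparisons with WT, and the third panel shows Cd47 and Lgals9 to the right of 0 and 6 filled points to the left.

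TPM is scaled by transcript length, so levels can be ordered within a group. Lgals9 and Cd47 were the top pair in each group and Nectin2 came next. In Usp22-KOA the order went on with Cd276, Pvr, Cd274, Cd80, Cd86, Pdcd1lg2 and Vtcn1, in which Nectin2 overlapped Cd276 and the neighbours from Cd80 to Pdcd1lg2 overlapped. In Usp22-KOB it went on with Cd276, Pvr, Cd274, Cd86, Cd80, Pdcd1lg2 and Vtcn1, with overlap of Cd276 and Pvr and of the neighbours from Cd86 to Pdcd1lg2. In WT it went on with Pvr, Cd276, Vtcn1, Cd274, Cd86, Cd80 and Pdcd1lg2, and only Cd86 and Cd80 overlapped. Vtcn1 stood sixth in WT and last in both knockouts. The TPM of the 10 ligands summed to 847, 869 and 908 in Usp22-KOA, to 618, 655 and 701 in Usp22-KOB, and to 626, 617 and 602 in WT. The sum of Usp22-KOA stood apart while that of Usp22-KOB overlapped WT. Most of it was Lgals9 and Cd47, at means of 400 and 352 TPM in Usp22-KOA and 227 and 168 TPM in WT. The sum thus says little about the other ligands. Nectin2, next in level, had the reverse order, with means of 37.3 TPM in Usp22-KOA, 70.0 TPM in Usp22-KOB and 129 TPM in WT.

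The samples are labelled tumor cells, and the epithelial keratin Krt8 was at 2474 ± 129 TPM in Usp22-KOA, 2634 ± 318 TPM in Usp22-KOB and 2495 ± 105 TPM in WT (mean ± SD, n = 3). Not all epithelial markers were as even. Epcam, an epithelial adhesion molecule, was at 37.7 ± 15.2 TPM in Usp22-KOA, 31.3 ± 5.31 TPM in Usp22-KOB and 379 ± 18.4 TPM in WT. Of 10 epithelial markers, 8 fell and 1 rose in Usp22-KOA, and 6 fell in Usp22-KOB. Among all genes tested, 26.9% fell and 29.4% rose in Usp22-KOA, and 18.4% fell in Usp22-KOB. None of the 10 was at 0 in any library, and the summed level was between 6331 and 7113 TPM in Usp22-KOA, between 6976 and 8546 TPM in Usp22-KOB and between 8508 and 9043 TPM in WT.

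RNA of immune cells was present in every library, and several ligands are genes of such cells. In bulk RNA, fewer cells of a type and less RNA per cell cannot be told apart. The 6 pan-leukocyte markers summed to 724, 588 and 347 TPM in Usp22-KOA, to 1346, 1253 and 660 TPM in Usp22-KOB, and to 317, 456 and 256 TPM in WT. The 12 macrophage and monocyte markers summed to 3488, 2975 and 1604 TPM in Usp22-KOA, to 9885, 9701 and 5670 TPM in Usp22-KOB, and to 2176, 3293 and 2276 TPM in WT. Only Usp22-KOB stood wholly above WT in the macrophage sum, which is also where Cd86 was highest. All 12 macrophage markers rose in Usp22-KOB, a count that was between 9 and 12 with a sample left out. In Usp22-KOA 1 rose, or 2 of 12 without Usp22-KOA sample 3 or without WT sample 2. Of the 6 pan-leukocyte markers 5 rose in Usp22-KOB, or between 4 and 6 with a sample left out. In Usp22-KOA 1 rose, or 3 without Usp22-KOA sample 3. The share of all genes tested that rose was 18.7% in Usp22-KOB and 29.4% in Usp22-KOA. None of these markers was at 0 in any library. The part of these cells in the ligand differences was not tested.

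Sample 3 was the lowest of its group in Cd274, Pdcd1lg2, Cd80 and Cd86 and in the pan-leukocyte sum, in each of the 3 groups. The coefficient of variation within groups was between 21.2% and 51.8% for Pdcd1lg2, Cd80 and Cd86, and between 1.92% and 12.1% for Cd47, Nectin2, Pvr and Lgals9, sets that were formed after the values were seen. With the 6 libraries numbered 1 and 2 alone, a setting also added after the data were seen, 9 ligands were called in Usp22-KOA against WT, where 55.3% of all genes were called, and 7 in Usp22-KOB against WT, where 40.4% were.

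The levels of the 4 B7 ligands were set beside Csf1r, the receptor by which macrophages sense their growth factor, and beside Ptprc, the pan-leukocyte gene of CD45, in ratios chosen after the values were seen. Csf1r was at 51.5, 40.8 and 23.8 TPM in Usp22-KOA, at 202, 197 and 105 TPM in Usp22-KOB, and at 42.9, 65.8 and 38.9 TPM in WT. Cd86 per Csf1r was between 0.108 and 0.140 in Usp22-KOA, between 0.0538 and 0.0627 in Usp22-KOB, and between 0.0831 and 0.102 in WT. Usp22-KOB was thus highest in Cd86 TPM and lowest in Cd86 per Csf1r. Cd274 per Csf1r was between 0.347 and 0.555 in Usp22-KOA, between 0.132 and 0.188 in Usp22-KOB, and between 0.151 and 0.240 in WT. Pdcd1lg2 per Csf1r averaged 0.0674 in Usp22-KOA, 0.0344 in Usp22-KOB and 0.0198 in WT, and Cd80 per Csf1r averaged 0.146 in Usp22-KOA, 0.0427 in Usp22-KOB and 0.0612 in WT. All 4 ratios to Csf1r were highest in Usp22-KOA, with no overlap with the other groups.

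The ratios to Ptprc did not keep that order. Cd86 per Ptprc was between 0.196 and 0.239 in Usp22-KOA, between 0.245 and 0.313 in Usp22-KOB, and between 0.267 and 0.326 in WT, so that Usp22-KOA was lowest and Usp22-KOB overlapped WT. Pdcd1lg2 per Ptprc averaged 0.120 in Usp22-KOA, 0.163 in Usp22-KOB and 0.0649 in WT, highest in Usp22-KOB. Cd274 per Ptprc overlapped in all 3 groups, with means of 0.784 in Usp22-KOA, 0.721 in Usp22-KOB and 0.692 in WT. Cd80 per Ptprc averaged 0.259 in Usp22-KOA, 0.202 in Usp22-KOB and 0.202 in WT, and the WT values spanned those of both knockouts. The order of the groups in these ratios thus depends on the marker chosen.

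**Figure D3:**
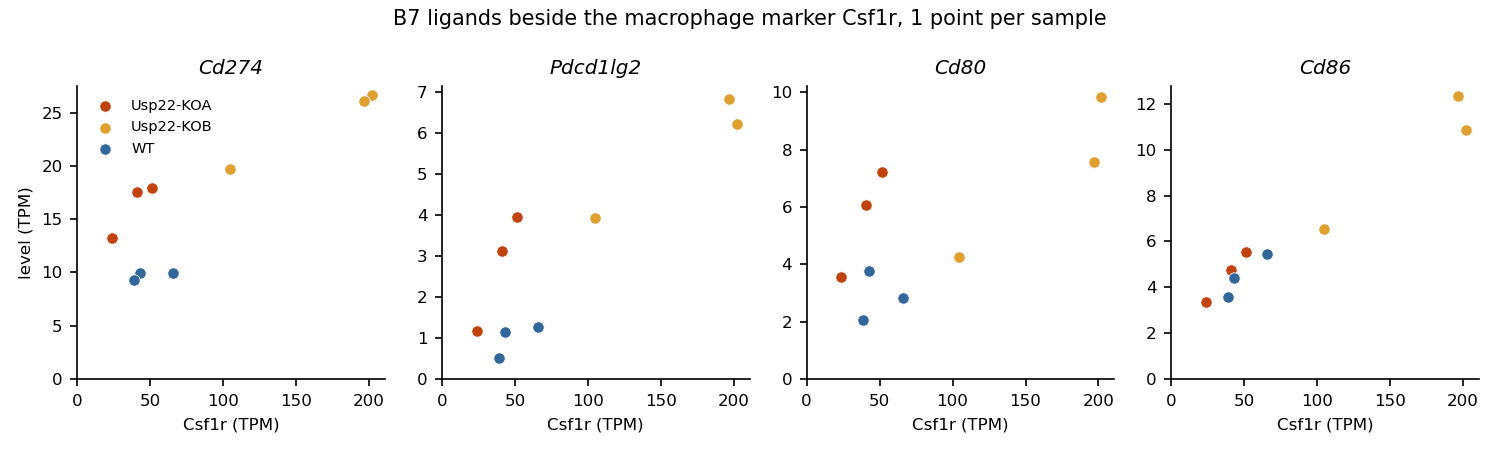
Level of Cd274, Pdcd1lg2, Cd80 and Cd86 (y axis, TPM) against the level of the macrophage marker Csf1r (x axis, TPM), 1 point per sample, colored by group. The Usp22-KOB points lie to the right, from 105 to 202 TPM of Csf1r, and the Usp22-KOA points lie above WT points of like Csf1r for Cd274.

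Other cell types also differed between groups. Their counts stand beside all genes tested, of which 29.4% rose and 26.9% fell in Usp22-KOA. In Usp22-KOB 18.7% of all genes rose and 18.4% fell. Mast cell markers summed to between 861 and 1802 TPM in Usp22-KOA, between 37.5 and 66.2 TPM in Usp22-KOB and between 3.15 and 8.53 TPM in WT, and 6 of 6 rose in Usp22-KOA and 4 of 6 in Usp22-KOB. The 9 T cell markers summed to between 30.4 and 52.5 TPM in Usp22-KOA, between 20.0 and 47.7 TPM in Usp22-KOB and between 9.97 and 18.2 TPM in WT. Of these 9, 7 rose in Usp22-KOA, or between 5 and 7 with a sample left out. In Usp22-KOB 5 rose, a count that was 2 without WT sample 3, Usp22-KOB sample 1 or Usp22-KOB sample 2, and 8 without Usp22-KOB sample 3. The 9 dendritic cell markers, of which 6 were tested, summed to between 22.5 and 45.8 TPM in Usp22-KOA, between 166 and 206 TPM in Usp22-KOB and between 85.7 and 90.6 TPM in WT, with 1 lower in Usp22-KOA and 4 higher in Usp22-KOB. The 1 that fell, Fscn1, averaged 5.87 TPM in Usp22-KOA, 102 TPM in Usp22-KOB and 64.8 TPM in WT, and the other 8 summed to between 18.4 and 38.3 TPM in Usp22-KOA, between 58.3 and 107.7 TPM in Usp22-KOB and between 14.6 and 30.3 TPM in WT, so that without Fscn1 Usp22-KOA overlapped WT. Fibroblast markers summed to between 33.8 and 43.6 TPM in Usp22-KOA, between 412 and 606 TPM in Usp22-KOB and between 290.0 and 502 TPM in WT. Of 7 fibroblast markers 6 fell in Usp22-KOA, and 2 rose in Usp22-KOB, or 4 without WT sample 3. Of 6 tested endothelial markers 6 fell in Usp22-KOA and 1 in Usp22-KOB, and their sums were between 4.57 and 10.3 TPM in Usp22-KOA, between 24.0 and 35.9 TPM in Usp22-KOB, and between 31.5 and 43.4 TPM in WT. B cell markers summed to at most 4.32 TPM in Usp22-KOA, 3.35 TPM in Usp22-KOB and 1.49 TPM in WT, and the 1 tested, Cd79b, was not called. Only the B cell list held genes listed at 0 in some library, 2 of its 5. Whether these cell types carry the ligand differences was not tested.

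The receptors and other partners of these ligands were examined next, of which 10 of 11 were in the table and 7 passed the filter. In Usp22-KOA 3 rose and 3 fell (Tigit, Thbs1 and Rgmb), and in Usp22-KOB 4 rose and 1 fell (Tigit). Of all genes tested, 56.3% were called in Usp22-KOA and 37.1% in Usp22-KOB. Pdcd1, the gene of PD-1, was at 3.36, 2.76 and 2.30 TPM in Usp22-KOA, at 3.26, 2.41 and 0.971 TPM in Usp22-KOB, and at 0.215, 0.479 and 0.165 TPM in WT. It rose by 1.56 ± 0.27 in Usp22-KOA (limma adjusted p = 0.0011) and by 1.26 ± 0.27 in Usp22-KOB (adjusted p = 0.0070). Ctla4, the inhibitory receptor of CD80 and CD86, rose by 1.48 ± 0.24 in Usp22-KOA and by 1.06 ± 0.24 in Usp22-KOB, with means of 3.23 TPM in Usp22-KOA, 2.27 TPM in Usp22-KOB and 0.507 TPM in WT. Havcr2, the gene of TIM-3, was at 14.7, 15.2 and 11.6 TPM in Usp22-KOA, at 8.74, 9.71 and 7.15 TPM in Usp22-KOB, and at 2.87, 3.12 and 2.70 TPM in WT. All 3 of these receptors were above WT in each knockout sample, as the T cell markers and the mast cell markers were in sum. Which cells carry the receptors was not tested.

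Tigit, the inhibitory receptor of PVR and nectin-2, moved the other way. It was at 14.6, 14.4 and 9.60 TPM in Usp22-KOA, at 15.3, 16.2 and 14.7 TPM in Usp22-KOB, and at 25.3, 24.9 and 23.01 TPM in WT. It fell by 0.89 ± 0.14 in Usp22-KOA (limma adjusted p = 5.4e-04) and by 0.63 ± 0.14 in Usp22-KOB (adjusted p = 0.0077). The T cell gene Cd3e, of the CD3 complex, was at 6.12 ± 0.933 TPM in Usp22-KOA, 4.52 ± 2.97 TPM in Usp22-KOB and 0.891 ± 0.229 TPM in WT (mean ± SD, n = 3), so WT had the most Tigit RNA and the least Cd3e RNA. Cd3g had the same order, with means of 7.91 TPM in Usp22-KOA, 6.22 TPM in Usp22-KOB and 1.21 TPM in WT. Cd3d differed little, with means of 5.13 TPM in Usp22-KOA, 5.79 TPM in Usp22-KOB and 4.52 TPM in WT and overlapping values. Cd96, Cd226 and Cd28 did not reach the filter.

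Sirpa, the phagocyte receptor of CD47, was at 53.7, 43.0 and 25.6 TPM in Usp22-KOA, at 99.1, 96.4 and 52.8 TPM in Usp22-KOB, and at 24.2, 35.6 and 22.8 TPM in WT. It rose by 1.52 ± 0.32 in Usp22-KOB (limma adjusted p = 0.0056). In Usp22-KOA the difference was 0.51 ± 0.32 (adjusted p = 0.196), which passed without Usp22-KOA sample 3 (adjusted p = 0.0459). Receptor and ligand thus peaked in different groups, with Sirpa highest in Usp22-KOB and Cd47 highest in Usp22-KOA. Thbs1, the matrix protein thrombospondin-1 that also binds CD47, averaged 59.5 TPM in Usp22-KOA, 105 TPM in Usp22-KOB and 108 TPM in WT, and fell by 0.92 ± 0.24 in Usp22-KOA (adjusted p = 0.0089). Rgmb, a partner of PD-L2, fell by 0.26 ± 0.09 in Usp22-KOA (adjusted p = 0.0270), a call that ended without any 1 WT sample or without Usp22-KOA sample 1 or 3 (adjusted p between 0.0563 and 0.0795).

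**Figure D4:**
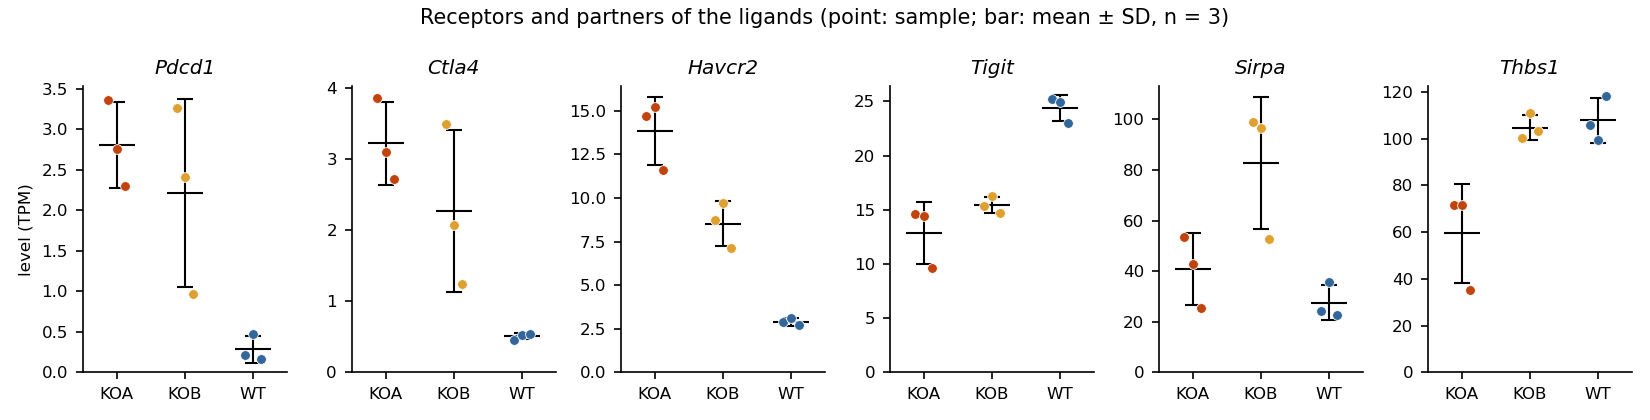
Level in TPM (y axis, from 0) of 6 receptors and partners of the ligands in Usp22-KOA, Usp22-KOB and WT; points are samples, bars the mean ± SD of 3. Pdcd1, Ctla4 and Havcr2 are above WT in all knockout samples, Tigit is below WT in all of them, and Sirpa is highest in Usp22-KOB.

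The interferon gamma pathway, the known inducer of the PD-1 ligands, was described from 13 genes, of which 12 were tested. In Usp22-KOA 8 rose and 2 fell, and in Usp22-KOB 7 rose and none of the 12 fell. Among all genes tested, 29.4% rose and 26.9% fell in Usp22-KOA, and 18.7% rose and 18.4% fell in Usp22-KOB. Irf1, an interferon-induced transcription factor known to act on the PD-L1 gene, averaged 133.5 ± 2.60 TPM in Usp22-KOA, 94.2 ± 3.16 TPM in Usp22-KOB and 57.1 ± 8.34 TPM in WT, and rose by 1.22 ± 0.09 in Usp22-KOA and by 0.72 ± 0.09 in Usp22-KOB. Set against Usp22-KOB, Usp22-KOA was higher in Irf1 by 0.50 ± 0.09 (limma adjusted p = 0.0016), while Cd274 was lower there.

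Stat2, a transcription factor of type I interferon signalling, rose by 1.002 ± 0.10 in Usp22-KOA and by 0.84 ± 0.10 in Usp22-KOB. Stat3, a cytokine-activated factor, rose by 0.63 ± 0.04 in Usp22-KOA (limma adjusted p = 4.0e-06) and by 0.14 ± 0.04 in Usp22-KOB (adjusted p = 0.0398). The Usp22-KOB call of Stat3 ended without any 1 of the 9 libraries (adjusted p between 0.0510 and 0.113). The receptor chains Ifngr1 and Ifngr2 rose by 0.31 ± 0.06 and 0.88 ± 0.07 in Usp22-KOA, and their differences in Usp22-KOB, -0.08 ± 0.06 and 0.12 ± 0.07, were not called. Ifng itself was under the filter, at 2.45, 2.30 and 1.62 TPM in Usp22-KOA, at 1.03, 0.293 and 0.0962 TPM in Usp22-KOB, and listed at 0, 0.0844 and 0 TPM in WT.

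PD-L1 and CD47 proteins are also set by factors that stabilize, modify or degrade them, which RNA of the ligands does not show. Of 12 such genes 4 rose and 3 fell in Usp22-KOA, and 2 rose and 2 fell in Usp22-KOB. Leaving out any 1 WT sample, or Usp22-KOB sample 1 or 2, left 1 higher and 1 lower in Usp22-KOB. Both counts are near the share of all genes called, 56.3% in Usp22-KOA and 37.1% in Usp22-KOB. Cul3, the scaffold of the ubiquitin ligase that degrades PD-L1, was at 23.7 ± 0.730 TPM in Usp22-KOA, 36.3 ± 2.98 TPM in Usp22-KOB and 40.5 ± 1.76 TPM in WT, and fell by 0.75 ± 0.07 in Usp22-KOA (limma adjusted p = 2.5e-05). Cops5, which removes ubiquitin from PD-L1, fell by 0.40 ± 0.08 in Usp22-KOA, and Zdhhc3, a palmitoyltransferase reported to act on PD-L1, rose by 0.49 ± 0.07 there. Neither Cul3, Cops5 nor Zdhhc3 passed in Usp22-KOB, although Cul3 was called lower there with quantile normalization (-0.20, limma adjusted p = 0.0244). Cmtm4, which like its relative Cmtm6 keeps PD-L1 at the surface, was lower by 0.28 ± 0.10 in Usp22-KOA (adjusted p = 0.0461) and by 0.36 ± 0.10 in Usp22-KOB (adjusted p = 0.0225). Both calls ended without any 1 WT sample or without sample 1 or 2 of the knockout concerned, and that of Usp22-KOA also without Usp22-KOB sample 2 (adjusted p between 0.0534 and 0.153).

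Beyond the 10, 17 other ligands of immune receptors were examined, of which 14 were tested. In Usp22-KOA 6 rose and 4 fell, and in Usp22-KOB 9 rose and 3 fell. With a sample left out, between 6 and 7 rose in Usp22-KOA and between 8 and 10 in Usp22-KOB. Among all genes tested, 29.4% rose and 26.9% fell in Usp22-KOA, and 18.7% rose and 18.4% fell in Usp22-KOB. H2-T23, the nonclassical Qa-1 molecule read by NKG2A, was at 615 ± 42.3 TPM in Usp22-KOA, 441 ± 21.5 TPM in Usp22-KOB and 111 ± 11.9 TPM in WT, and rose by 2.46 ± 0.08 in Usp22-KOA (limma adjusted p = 8.7e-08) and by 1.98 ± 0.08 in Usp22-KOB (adjusted p = 1.1e-06). Nectin3, an adhesion partner of Nectin2, was at 7.92 ± 0.0332 TPM in Usp22-KOA, 11.99 ± 0.397 TPM in Usp22-KOB and 24.1 ± 0.921 TPM in WT. It fell by 1.495 ± 0.06 in Usp22-KOA and by 0.95 ± 0.06 in Usp22-KOB, the same order of groups as Nectin2. The galectin genes Lgals8 and Lgals3 rose in both knockouts, Lgals8 by 0.92 ± 0.08 in Usp22-KOA and 0.43 ± 0.08 in Usp22-KOB, and Lgals3 by 0.79 ± 0.13 in Usp22-KOA and 1.31 ± 0.13 in Usp22-KOB. Lgals8 followed the order of Lgals9 and Lgals3 that of Cd274.

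The genes whose profile was most like each ligand were found by the root mean square difference of log2(TPM + 1), each taken from its WT mean, over the 9 samples and 13001 candidates. For Cd274 they were Psap and Lgals3 (0.109 and 0.118, where the median candidate was at 0.861), for Pdcd1lg2 Matk and Tgfbi (0.153 and 0.184), for Cd80 Mcemp1 and Rasal3 (0.144 and 0.150), and for Cd86 Adcy7 and Pctp (0.120 and 0.129). The gene nearest to Cd47 was Lamb2 at 0.0658, followed by Tmem128 at 0.0676, and Osbpl1a (0.0311) and Prep (0.0443) were nearest to Lgals9. Nectin2 was most like Nrk (0.124) and Ndrg2 (0.130). Nrk averaged only 2.31 TPM in WT and 0.733 TPM in Usp22-KOB and was listed at 0 in Usp22-KOA. Its fall on this scale was thus bounded by the 1 TPM added before the log. Hmgb1 (0.0465) was 1 of the 2 genes nearest to Pvr. Vtcn1 was most like Tmem45b (0.223) and Cybrd1 (0.231), and Cd276 like Unc5b (0.0630) and Pkmyt1 (0.0727). Ndrg2 averaged 13.9 TPM in Usp22-KOA, 28.4 TPM in Usp22-KOB and 47.0 TPM in WT, and Tmem45b averaged 12.5 TPM in Usp22-KOA, 20.7 TPM in Usp22-KOB and 124 TPM in WT.

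Within 100 kb of the ligands, 32 other genes were tested, a set chosen after the values were seen. In Usp22-KOA 12 rose and 8 fell, and in Usp22-KOB 9 rose and 4 fell, against 56.3% of all genes called in Usp22-KOA and 37.1% in Usp22-KOB. Of the 9 neighbours of Nectin2, 1 rose and 4 fell in Usp22-KOA, and 1 rose and 2 fell in Usp22-KOB. Among them Bcam, an epithelial laminin receptor, fell by 3.22 in Usp22-KOA and 0.98 in Usp22-KOB, and Cblc, a ubiquitin ligase gene, by 2.24 in Usp22-KOA and 1.18 in Usp22-KOB, while Relb and Clptm1 were not called in either. Of the 5 neighbours of Pvr, 1 rose and 1 fell in Usp22-KOA and 2 fell in Usp22-KOB, with Igsf23 lower by 2.78 in Usp22-KOA and 1.80 in Usp22-KOB. Nos2, the inducible nitric oxide synthase gene beside Lgals9, rose by 1.53 in Usp22-KOA and 0.71 in Usp22-KOB, and Ksr1, also beside Lgals9, fell by 0.34 in Usp22-KOA. Plgrkt, within reach of both Cd274 and Pdcd1lg2, rose by 0.38 in Usp22-KOA and 0.41 in Usp22-KOB. Near Vtcn1, Trim45, Ttf2 and Cd101 were not called in either knockout. All 5 neighbours of Cd80 rose in Usp22-KOA and 3 rose in Usp22-KOB. Ildr1, the 1 neighbour of Cd86, rose by 3.58 in Usp22-KOA and was not called in Usp22-KOB. The 1 neighbour of Cd47 and 2 of the 3 neighbours of Cd276 rose in both knockouts.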

How the data were processed

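Messenger RNA of 9 samples was measured in 3 groups of 3, assigned by the sample titles. The authors deposited 1 table of TPM values per gene and sample, with 0 columns left unmatched. The mouse build mm10, Salmon and DESeq2 are named, per the submitters' processing notes, with no roles or annotation given.

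From the deposited TPM, log2(TPM + 1) was fitted with limma 3.58.1 (R 4.3.3, intensity trend, all 9 samples, a mean per group) over the 13843 genes that averaged 1 TPM or more, setting aside 10650; p-values were Benjamini-Hochberg adjusted over all genes tested and called under 0.05. The code was tested on simulated data. Usp22 was tested by exact permutation. Each knockout, and their average, was compared with WT, and Usp22-KOA with Usp22-KOB. Sequence searches used Python 3.11.15 with numpy 2.4.6 and pandas 2.3.3, and figures matplotlib 3.10.9. Depth cannot be recovered from TPM, so no count model was used, and protein levels were not analysed here.

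The ligands and gene lists were chosen with earlier results of these data known. Genes named are Usp22, the 10 ligands, the receptors, up to 4 genes per list that ranked first by adjusted p in the average of both knockouts against WT, and the 2 genes most like each ligand, predicted gene models passed over. Of these, 2 genes are not reported here. Genes named beyond that, among them Epcam, Krt8, Csf1r, Jak2, Ifng, the interferon receptors and the neighbours, were chosen for their role or after their values were seen.

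Alternatives were pseudocounts of 0.1 and 5, no filter or one at 5 TPM, median-of-ratios scaling, quantile normalization, no trend, a fit of only the groups compared, 1 group made of all 6 knockout samples, the replicate number as a block, each sample left out, and the 6 libraries numbered 1 and 2.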

Additional observations from a re-analysis of the deposited data

Results flagged for a closer look

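The effects of Usp22-KOA and Usp22-KOB differed in 8 of the 10 ligands by the direct test between the knockouts (limma, adjusted p under 0.05), where 51.7% of all genes tested differed. Higher in Usp22-KOA than in Usp22-KOB were Cd47, by 0.87 on the log2(TPM + 1) scale, and Lgals9, by 0.51. Lower in Usp22-KOA were Cd86 (-0.95), Pdcd1lg2 (-0.89), Nectin2 (-0.89), Cd274 (-0.54), Vtcn1 (-0.47) and Pvr (-0.43). For Pdcd1lg2 and Vtcn1 the values of the knockouts overlapped, and both calls ended with any of several libraries left out and with quantile normalization, among other settings, where Vtcn1 was at -0.16 (adjusted p = 0.373). Cd47, Cd86 and Pvr were called against WT in only 1 of the knockouts, Cd86 in Usp22-KOB and Cd47 and Pvr in Usp22-KOA. For Cd47, Cd86 and Pvr the direct limma test gave adjusted p = 1.6e-05, 0.0093 and 0.0013. Cd47 in Usp22-KOB against WT was near the threshold (limma adjusted p = 0.0597). The macrophage marker sum, between 1604 and 3488 TPM in Usp22-KOA and between 5670 and 9885 TPM in Usp22-KOB, differed between the same groups, and its part in these results was not tested. Groups of 3 samples are too small for the test of single samples that stand apart.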

How the results depend on the processing

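Of 756 recomputed differences of single ligands, 677 kept direction and call, 50 lost a call, 22 gained one and 7 changed sign. All changes of sign were in differences that had not been called: Cd86 in Usp22-KOA against WT was -0.0095 with median-of-ratios scaling and between -0.11 and 0.18 with a sample left out, and Cd276 in Usp22-KOA against Usp22-KOB was between -0.14 and 0.0604 with a sample left out and 0.15 with the 6 libraries numbered 1 and 2. The causes were not tested.

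The called differences of Cd274, Nectin2 and Lgals9, those of Vtcn1 against WT, those of Cd47 and Pvr in Usp22-KOA against WT and against Usp22-KOB, those of Pdcd1lg2 in Usp22-KOB and in both knockouts against WT, and that of Cd86 between the knockouts kept their call under every alternative run. The call of Pdcd1lg2 in Usp22-KOA ended with a pseudocount of 5 (adjusted p = 0.0680), no filter (0.0672), median-of-ratios scaling (0.0548), no trend (0.0507) and only the groups compared (0.0684); over all its alternatives adjusted p went up to 0.153. Cd80 in Usp22-KOA passed with quantile normalization (0.0233) and only the groups compared (0.0496), Cd47 in Usp22-KOB with median-of-ratios scaling (0.0308) and only the groups compared (0.0427), and Cd276 in Usp22-KOB with median-of-ratios scaling (0.0415). For both knockouts against WT, Cd276 also missed with a pseudocount of 5 (0.0502), no filter (0.0665), quantile normalization (0.0542) and no trend (0.0620), and Pvr passed with quantile normalization (0.0184) and median-of-ratios scaling (0.0240), as did Cd86 with quantile normalization (0.0352). Between the knockouts, Vtcn1 missed with quantile normalization (-0.16, adjusted p = 0.373), a pseudocount of 5, a filter at 5 TPM, only the groups compared, and the 6 libraries numbered 1 and 2; Pdcd1lg2 missed with a pseudocount of 0.1, no filter, quantile normalization and only the groups compared (adjusted p between 0.0670 and 0.0844).

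The count of genes called for both knockouts against WT, 6920, was 2946 with the 6 knockout samples as 1 group, where Cd47 (limma adjusted p = 0.116) and Cd276 (0.0995) were no longer called, since differences between the knockouts then count as spread. A mean of at least 5 TPM left no value for Pdcd1lg2.

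Whether same-numbered samples belong together could not be settled. Of 9 same-numbered pairs, 2 had a correlation of deviations over 0.1 (range -0.12 to 0.28). These were samples 1 (0.187) and samples 3 (0.276) of Usp22-KOA and Usp22-KOB. Pairs with different numbers ranged from -0.23 to 0.20. Deviations cancel within a group of 3, so the correlations depend on each other and cannot show that samples are unpaired. With the replicate block 7588 genes were called in Usp22-KOA against WT, 4835 in Usp22-KOB against WT, 6702 in both knockouts against WT and 6922 in Usp22-KOA against Usp22-KOB, beside 7793, 5129, 6920 and 7158 without it. Under the block Cd80 passed in Usp22-KOA against WT (adjusted p = 0.0016) and Cd86 in both knockouts against WT (0.0103), where Cd276 no longer did (0.0761).

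TPM keeps no depth, so counting error is unknown. With 3 samples a group, differences under about 0.2 could not be told from spread for ligands such as Cd47, and larger ones for the variable Pdcd1lg2, Cd80 and Cd86.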
